A study of Mus musculus with 4 samples.

Results

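The genes described here encode the cytosolic factors that lengthen and release the protein chain on the ribosome. They were chosen by symbol from a list of elongation and release factors (Eef1a1, Eef1b2, Eef1d, Eef1g, Eef2, Eef2k, Eif5a, Etf1, Gspt1 and Abce1), and all 10 had a row among the 18200 genes of the deposited table. The material was RNA of polysomes, messenger RNA carrying several ribosomes, from wild-type mouse cells labelled ADSCs, which the series title counts as mesenchymal stem cells. Libraries 1 and 2 of the control group came from cells with a scrambled construct, and libraries 1 and 2 of the other group from cells with an shRNA against Ifit1. Number 1 of each group belonged to batch 1 and number 2 to batch 2. The title links Ifit1 to suppressed translation and to muscle differentiation, and the vector, its promoter and the number of clones are not stated. The libraries are called Sc 1, Sc 2, Kd 1 and Kd 2 here, after their labels. Total RNA was not analysed here, so the amount of a messenger RNA and its loading with ribosomes cannot be told apart, and in bulk RNA neither can fewer cells of a type and less RNA per cell.

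In elongation, eEF1A in its GTP form brings each aminoacyl-tRNA to the ribosome, and the eEF1B subunits exchange its spent GDP for GTP. eEF2, also a GTPase, then moves the ribosome along by a codon, a step that eEF2 kinase slows by phosphorylating eEF2. eIF5A, despite its name, helps the ribosome through stretches where peptide bonds form slowly. At a stop codon eRF1 (Etf1) and the GTPase eRF3 (Gspt1) release the finished chain, and the ATPase ABCE1 splits the ribosome for another round. Messenger RNAs of eEF1A and eEF2 belong to the textbook class that begins with a run of pyrimidines (5′ terminal oligopyrimidine, TOP) and is translated under control of the kinase mTOR.

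Starts of the genes and of their messenger RNAs are shown for Eef1a1 and Eef2. Among the factors, the largest decrease and the only increase that passed the test below fell on this pair. RefSeq promoter entries (build GRCm38.p6) matched 7 of the 10 factors. The first pair of stretches runs from 60 bases before to 30 bases after the annotated start, with matches to TATANA, searched on both strands, in capitals. The letters TATATA of Eef1a1 read the same on both strands. Eef1a1 lies at chr9:78481695-78481784 on the minus strand and Eef2 at chr10:81176571-81176660 on the plus strand.
Eef1a1 promoter: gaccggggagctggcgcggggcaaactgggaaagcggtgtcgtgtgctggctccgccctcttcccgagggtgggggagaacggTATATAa
Eef2 promoter: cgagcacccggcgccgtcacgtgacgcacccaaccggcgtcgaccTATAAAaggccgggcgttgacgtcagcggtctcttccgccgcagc

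Of 32851 promoter entries, 8.2% held TATANA on either strand in the same 90 bases. Among the 7 matched factors only Eef1a1 and Eef2 held it. That is a count of genes, of which Eif5a and Eef2k have several entries each, so it cannot be set directly against the share of entries. In Eef1a1 the match began 24 bases after the annotated start and in Eef2 15 bases before it. Stretches of 30 bases from the GENCODE M21 messenger RNAs follow, for the 3 factors whose longest coding transcript held CTNTTNC (capitals, searched on the RNA strand only) in its first 100 bases.
Eef1a1 mRNA, bases 43 to 72: ccttggacgttCTTTTTCgcaacgggtttg
Eef2 mRNA, bases 5 to 34: acgtcagcggtCTCTTCCgccgcagccgcc
Eef1g mRNA, bases 62 to 91: ctttccggccgCTGTTTCcacactgctctc

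Those letters occurred in 10.7% of 21877 protein-coding genes. The matches began at base 54 in Eef1a1, base 16 in Eef2 and base 73 in Eef1g, so in none of the 3 did the annotated transcript begin with them. A match is a string of letters and was not tested as a site.

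Before the results, 3 properties of the libraries bear on every value. Ifit1, the gene named as the target, was 1.93 and 1.91 FPKM (fragments scaled to gene length and library depth) in Sc 1 and Sc 2 but 13.9 and 14.8 in Kd 1 and Kd 2, opposite to the labels. All directions are therefore those of the libraries labelled knockdown (Kd) against the libraries labelled scrambled (Sc), and the labels were checked by no other value. The replicate numbers also did not behave as pairs: across 8750 tested genes, the difference between replicates 2 and 1 in one group ran against that in the other (Pearson's r -0.83, Spearman's rho -0.54, over genes that share the same 4 libraries). Of 2289 genes with a replicate difference of at least 0.1 (log2) in both groups, 2282 had opposite signs, so a gene higher in Sc 2 than in Sc 1 was as a rule lower in Kd 2 than in Kd 1, or the reverse. Stromal markers were present in part: 5 of 7 were tested (Thy1, Eng, Cd44, Ly6a and Itgb1). Levels of these 5 ran from Eng (0.924 to 2.42 FPKM) to Ly6a (22.1 to 43.9 FPKM). All 5 were higher in the Kd libraries at the threshold given below, where 27.4% of all tested genes were higher and 41.2% lower. Nt5e stayed at or below 0.0347 FPKM and Pdgfrb at 0.768 to 0.909. Pecam1, Epcam, Cdh1 and Plin1 were at or below 0.0172 FPKM in every library, Des ranged from 0.223 to 0.919 and Fabp4 from 1.47 to 2.62, and the remaining markers of leukocytes, endothelium, fat and muscle were not analysed here. The part of the stromal markers in the results was not tested.

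Eef1a1, the most abundant factor in the Sc libraries, was 1.92-fold lower in the Kd libraries, and Gspt1 was 1.79-fold lower, while Eef2 was 1.64-fold higher. Etf1, Eef1g and Eef1b2 had smaller decreases. Eef1d, Eef2k, Eif5a and Abce1 did not pass the test. In all, 5 of the 10 factors were lower and 1 higher at an adjusted p under 0.05 (limma on log2(FPKM + 1), Benjamini-Hochberg over all tested genes), against 41.2% of all tested genes lower and 27.4% higher (68.7% in either direction). The share of factors that passed was near that background. Their median log2 change was -0.22, beside -0.03 over all tested genes, whose middle 50% lay between -0.50 and 0.25. With the trend of change with transcript length removed, the factors' median was -0.03 beside 0.00 over all tested genes, with the same count of 5 lower and 1 higher. The labels do not say that replicates came from separate cultures, so the p-values reflect no more than the spread of these 4 libraries, possibly a technical one. Over tested genes the median fitted SE was 0.0208, below the median SE of 0.0456 that counting fragments alone would give. Replicates thus often agreed more closely than counting error allows, and the p-values can be too small. The cause was not tested.

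**Figure D1:**
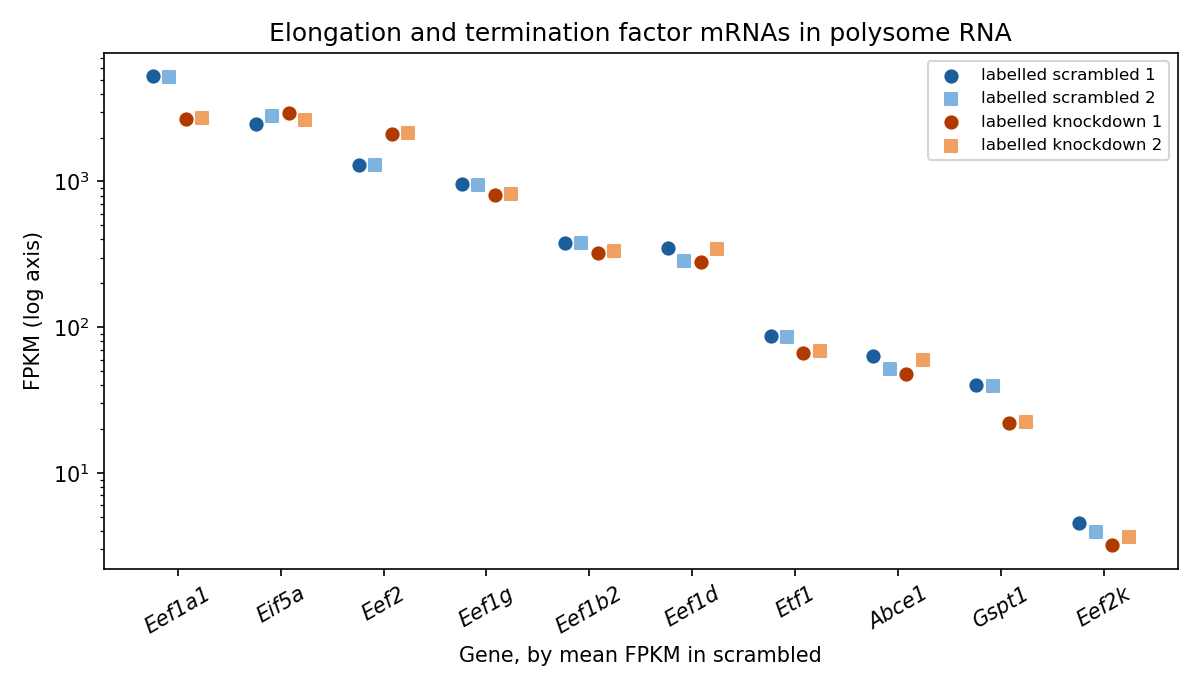
FPKM of the 10 factors on a log axis, 1 point per library (circles, replicate 1; squares, replicate 2; blue, Sc; orange, Kd), with genes ordered by their mean in the Sc libraries. The levels run from 5258 FPKM for Eef1a1 to 3.18 for Eef2k, and the blue and orange points stand clearly apart for Eef1a1, Eef2 and Gspt1.

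Levels spanned about 3 orders of magnitude on the per-length FPKM scale. In the Sc libraries the order by mean FPKM was Eef1a1, Eif5a, Eef2, Eef1g, Eef1b2, Eef1d, Etf1, Abce1, Gspt1 and Eef2k. Eef1b2 and Eef1d are neighbours whose levels were separated in each library labelled scrambled but crossed in Kd 2, where Eef1d was at 347 and Eef1b2 at 331 FPKM. Eif5a and Eef1a1 lay close together in the Kd libraries, with Eif5a above in Kd 1 (2939 against 2697 FPKM) and Eef1a1 above in Kd 2 (2746 against 2647), so the pair did not separate there beyond the spread. Eef1a1 ranked 5 and 7 among all genes by FPKM in the Sc libraries and 47 and 43 in the Kd libraries.

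Eef1a1, which delivers aminoacyl-tRNA, had 5258 and 5195 FPKM in the Sc libraries and 2697 and 2746 in the Kd libraries. The groups stood far apart and replicates lay close together. The means were 5227 ± 44.1 and 2722 ± 34.7 FPKM (SD, n = 2 each), a difference of -0.94 on log2(FPKM + 1) (SE 0.02, limma adjusted p = 1.6e-04), and within batches it was -0.96 (batch 1) and -0.92 (batch 2). Behind these levels stood 303026 and 363661 fragments against 190475 and 177925. On this scale 5.4% of tested genes had a more negative change, but adding 1 to FPKM shrinks changes of genes at low levels. With 0.1 added instead, Ltn1 went from -0.464 to -0.838, while Eef1a1 stayed at -0.941. The same limit applies to the shares given for Eef2 and Gspt1. Reads of Eef1a1 can be assigned to copies: 26.7% of the 100-base windows of its transcript also occurred exactly in transcripts of 10 other genes, 9 of them pseudogenes, and the sources used here do not give the handling of such reads.

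Eef2, the translocation GTPase, moved the other way. It stood at 1299 and 1298 FPKM in the Sc libraries and at 2108 and 2160 in the Kd libraries. The lowest Kd library was thus well above the highest Sc library. The means were 1299 ± 0.612 and 2134 ± 36.8 FPKM (SD, n = 2 each), giving a log2 change of 0.72 (SE 0.02, limma adjusted p = 1.9e-04; 0.70 in batch 1 and 0.73 in batch 2). It rested on 129682 and 157395 fragments against 257813 and 242365. Of all tested genes, 89.8% had a less positive or a negative change. Of its 100-base windows, 0.1% occurred in a transcript of another gene.

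**Figure D2:**
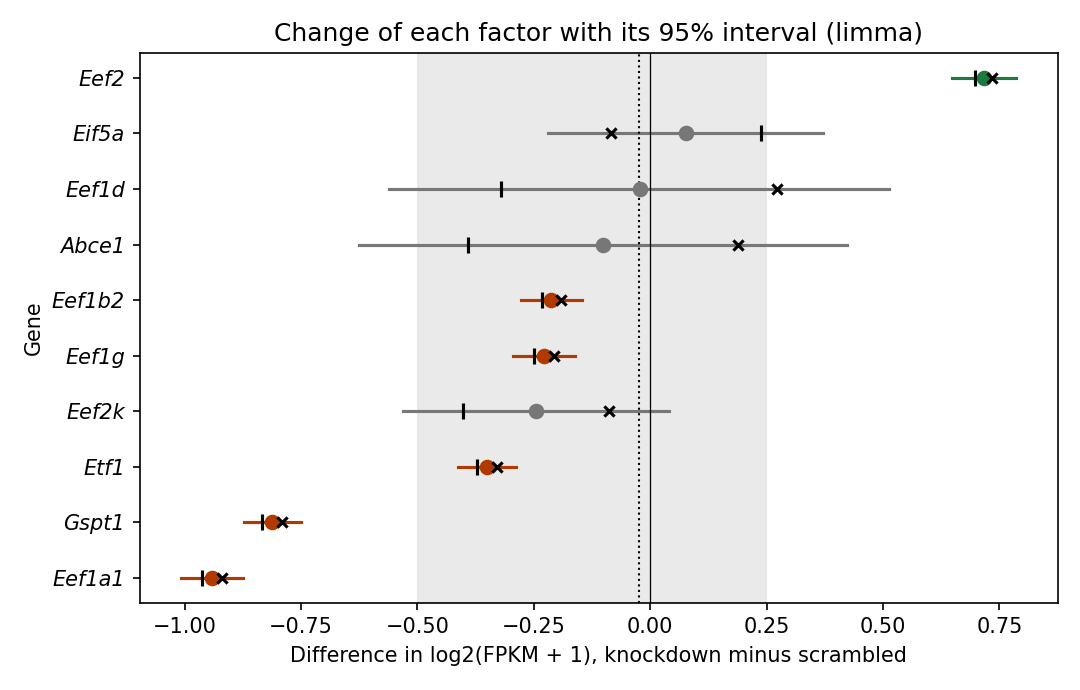
Difference in log2(FPKM + 1), knockdown minus scrambled, for each factor, with the 95% interval from limma (green, higher; red, lower; grey, not past the threshold). Vertical ticks mark batch 1, crosses batch 2, the grey band the middle 50% of all tested genes and the dotted line their median; Eef1a1 and Gspt1 lie left of the band, Eef2 right of it, and the batches disagree in sign for Eif5a, Eef1d and Abce1.

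The opposite changes of Eef1a1 and Eef2 altered their proportion within each library. The ratio of Eef1a1 to Eef2 FPKM was 4.05 and 4.00 in the Sc libraries and 1.28 and 1.27 in the Kd libraries, and no scaling between libraries can change it. Its mean went from 4.02 ± 0.0321 to 1.28 ± 0.00574 (SD, n = 2 each). With 2 libraries against 2 an exact two-sided permutation test cannot give a p below 0.333, so single ratios are given without a test. Of the summed FPKM of the 10 factors, Eef1a1 made up 48.1% and 46.8% in the Sc libraries and 29.0% and 29.8% in the Kd libraries, and Eef2 11.9% and 11.7% against 22.7% and 23.5%. The sum itself was 10932 and 11095 FPKM against 9294 and 9206, or 1.83% and 1.80% of all FPKM against 1.32% and 1.35%.

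The eEF1B subunits showed smaller differences than their substrate. Eef1b2, the nucleotide exchange subunit eEF1B-alpha, had 381 and 379 FPKM in the Sc libraries and 324 and 331 in the Kd libraries. Eef1g, the scaffold subunit eEF1B-gamma, had 955 and 948 against 804 and 821 FPKM. Neither gene's groups overlapped. The share of all tested genes whose groups did not overlap was not counted, here or for the other factors. Their log2 changes were -0.21 (SE 0.02, limma adjusted p = 0.003) and -0.23 (SE 0.02, limma adjusted p = 0.0026). When each library was centred on its median, which moves the overall median of changes from -0.03 to 0.15, the values were -0.04 and -0.06 and neither passed (adjusted p = 0.5 and 0.35). Of the 100-base windows of Eef1g, 49.4% occurred in 4 pseudogenes, and of those of Eef1b2 1.2% in 1.

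Eef1d, the other exchange subunit, had 351 and 287 FPKM in the Sc libraries and 281 and 347 in the Kd libraries. Sc 1 and Kd 2 were high and Sc 2 and Kd 1 low, so the groups overlapped completely. The group means were 319 ± 45.3 and 314 ± 46.6 FPKM (SD, n = 2 each). The log2 change was -0.02 with a 95% interval from -0.56 to 0.51 (limma adjusted p = 0.99), and it was -0.32 in batch 1 and 0.27 in batch 2. The interval holds changes as large as those of Eef1b2, Eef1g and Etf1, so equal levels of Eef1d are not shown. Its replicates differed by -0.29 in the Sc libraries and by 0.30 in the Kd libraries, where counting error alone has an SD of 0.0110 and 0.0108.

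Eef1b2 and Eef1g kept their proportion to each other. Their ratio was 0.399, 0.400, 0.403 and 0.404 in Sc 1, Sc 2, Kd 1 and Kd 2, a difference in means of 0.015 on the log2 scale. Eef1d over Eef1g, by contrast, was 0.367, 0.302, 0.349 and 0.422, and so varied between replicates of both groups. Against the eEF1B subunits together, Eef1a1 stood at 3.12 and 3.22 in the Sc libraries and at 1.91 and 1.83 in the Kd libraries. Eef1a1 over Eef1g alone was 5.50 and 5.48 against 3.36 and 3.35.

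**Figure D3:**
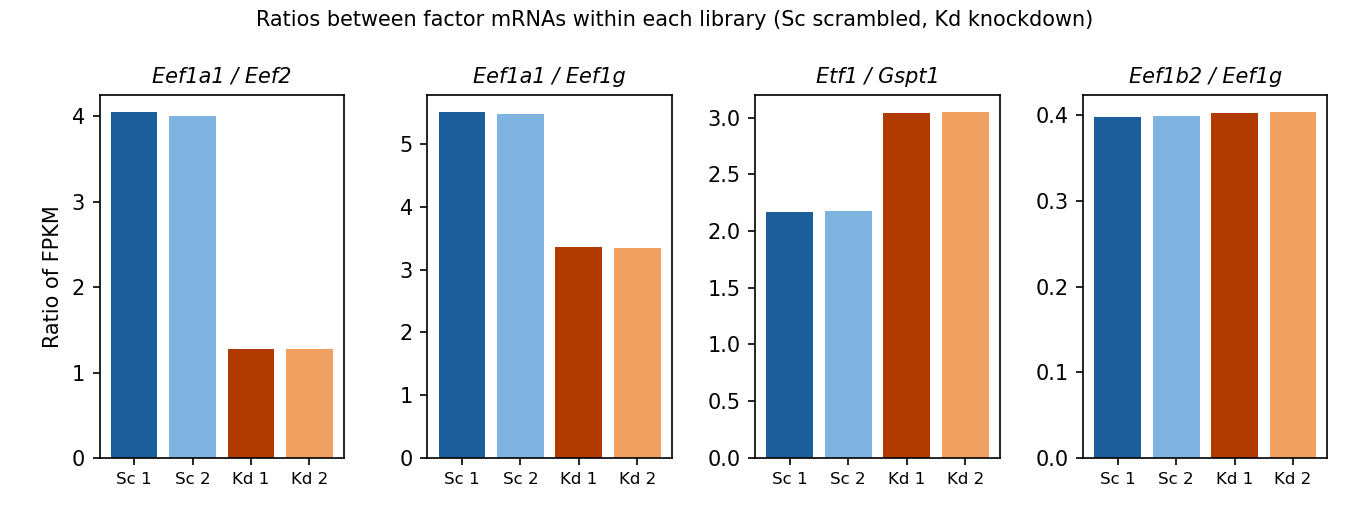
Ratios of FPKM between factors within each library (Sc, scrambled label; Kd, knockdown label), each bar a single library and each axis starting at 0. Eef1a1 over Eef2 drops from about 4.02 to 1.28, Eef1a1 over Eef1g from 5.49 to 3.35, Etf1 over Gspt1 rises from 2.18 to 3.04, and Eef1b2 over Eef1g stays between 0.399 and 0.404.

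Eif5a, the carrier of the amino acid hypusine, was second in level and did not pass. It had 2493 and 2807 FPKM in the Sc libraries and 2939 and 2647 in the Kd libraries. Here Sc 1 and Kd 2 were the low libraries, the reverse of Eef1d, and the groups overlapped. The log2 change was 0.08 (95% interval -0.22 to 0.37, limma adjusted p = 0.6), but 0.24 within batch 1 and -0.09 within batch 2. With 168351 to 243160 fragments per library, the counting SD of its replicate difference was at most 0.00463, while the replicates differed by 0.17 and -0.15.

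Eef2k, the calcium- and calmodulin-dependent kinase of eEF2, was the least abundant factor. It had 4.53 and 3.95 FPKM in the Sc libraries and 3.18 and 3.66 in the Kd libraries, from 883 to 1087 fragments. The groups did not overlap, but replicates of a group lay farther apart than Sc 2 and Kd 2 did. The log2 change of -0.25 did not pass (95% interval -0.53 to 0.04, limma adjusted p = 0.1), and it was -0.40 in batch 1 and -0.09 in batch 2. It passed after scaling all libraries to the same FPKM total (log2 -0.39, adjusted p = 0.025) and was 0.11 once the trend of change with transcript length was removed (adjusted p = 0.38). FPKM of Eef2 over Eef2k was 287 and 329 in the Sc libraries and 663 and 591 in the Kd libraries.

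The termination pair was lower in the Kd libraries, and the GTPase more so than the stop codon reader. Gspt1 (eRF3a) had 40.0 and 39.4 FPKM in the Sc libraries and 22.0 and 22.4 in the Kd libraries. Its log2 change was -0.81 (SE 0.02, limma adjusted p = 1.6e-04; -0.83 in batch 1 and -0.79 in batch 2), and 9.5% of tested genes had a more negative one. Etf1 (eRF1), which recognises stop codons and cuts the chain from its tRNA, had 86.8 and 85.9 against 66.9 and 68.1 FPKM. The groups of both genes were well separated, and the Etf1 change was -0.35 (SE 0.02, limma adjusted p = 6.6e-04). The ratio of Etf1 to Gspt1 was 2.17 and 2.18 in the Sc libraries and 3.04 and 3.05 in the Kd libraries. Log2 change fell with transcript length across 8749 tested genes (Spearman's rho -0.38, over genes of the same 4 libraries). With that trend removed, the changes were -0.46 for Gspt1 (adjusted p = 4.2e-04) and -0.14 for Etf1 (adjusted p = 0.0095), and Etf1 was at -0.18 after median-centring (adjusted p = 0.027).

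Abce1, the recycling ATPase, had 63.4 and 51.9 FPKM in the Sc libraries and 48.1 and 59.3 in the Kd libraries. As with Eef1d, Sc 1 and Kd 2 were high and the groups overlapped. The log2 change was -0.10 (95% interval -0.63 to 0.42, limma adjusted p = 0.72), but -0.39 within batch 1 and 0.19 within batch 2. Over 7231 to 8177 fragments, the replicate differences of -0.28 and 0.30 were more than 10 times the counting SDs of 0.0232 and 0.0233. No 100-base window of Abce1, Etf1, Gspt1 or Eef2k occurred in a transcript of another gene.

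**Figure D4:**
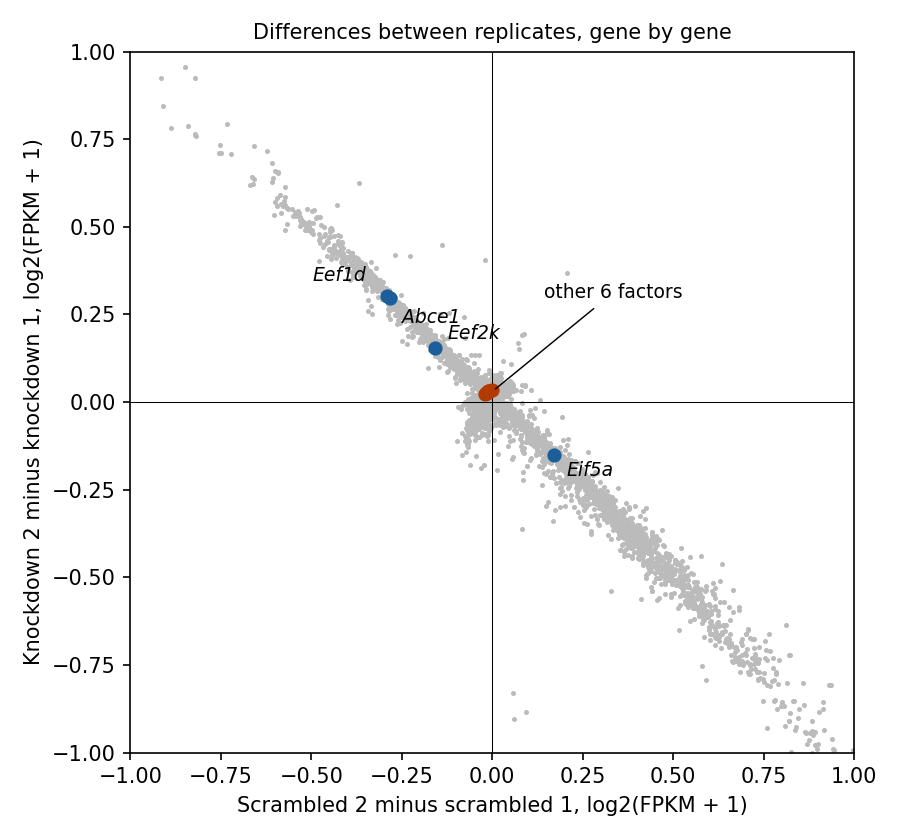
Each point is a tested gene: difference between the Sc replicates (horizontal) against that between the Kd replicates (vertical), in log2(FPKM + 1), with factors past the threshold in red and the others in blue, and 25 genes outside the plotted range. Eef1d, Abce1 and Eef2k lie on the upper left arm and Eif5a on the lower right arm, while the other 6 factors lie near the centre.

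The 10 factors therefore fell into separate kinds by their replicates. For Eef1a1, Eef1b2, Eef1g, Eef2, Etf1 and Gspt1 the replicates differed by at most 0.035 (log2) in either group. For Eef1d, Eef2k, Eif5a and Abce1 they differed by 0.15 to 0.30 in size, with opposite signs in the groups. All of the former passed the test and none of the latter did, which the test's own use of the replicate spread favours. Among all 2741 tested genes that did not pass, 2215 had replicate differences of at least 0.1 in both groups, 2209 of them with opposite signs. The cause was not tested.

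Other copies of these factors and the selenocysteine factors were mostly low. Of 7 listed genes, 5 were tested, of which 2 rose, 2 fell and 1 did not pass, with a median log2 change of -0.03. All tested genes had 27.4% higher and 41.2% lower. Eef1a2, the muscle and nerve copy of eEF1A, was listed at 0 in 3 libraries and at 0.0138 FPKM in Kd 2. Gspt2, the second eRF3 gene, stood at 0.672, 0.790, 0.772 and 0.665 FPKM in Sc 1, Sc 2, Kd 1 and Kd 2. Eif5a2 had 1.12 and 1.13 FPKM in the Sc libraries and 1.56 and 1.62 in the Kd libraries (log2 0.29, limma adjusted p = 9.0e-04), but did not pass when standard errors were held at or above counting error (adjusted p = 0.083). Secisbp2, which binds the selenocysteine element of messenger RNAs, fell from 4.02 and 4.00 FPKM in Sc 1 and Sc 2 to 1.98 and 2.02 in Kd 1 and Kd 2. Its relative Secisbp2l fell from 1.58 and 1.54 to 0.912 and 0.918 FPKM (log2 -0.42, and -0.06 with the length trend removed, adjusted p = 0.04). The latter value was smaller in size than the SE of 0.084 from counting error alone. Eef1e1, a component of the aminoacyl-tRNA synthetase complex, rose from 145 and 144 to 196 and 200 FPKM (log2 0.45, and 0.26 with the length trend removed).

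Enzymes that modify the factors changed in both directions. Of 18 listed and tested, 5 rose, 6 fell and 7 did not pass, and the median log2 change was -0.03. Among all tested genes 27.4% were higher and 41.2% lower. Eef1akmt2, a lysine methyltransferase of eEF1A, had the largest change of the list, from 11.2 and 11.0 FPKM in Sc 1 and Sc 2 to 36.9 and 36.6 in Kd 1 and Kd 2 (log2 1.64, SE 0.02, limma adjusted p = 1.6e-04). Eef1akmt4, another of these methyltransferases, rose from 17.4 and 17.2 to 24.4 and 24.7 FPKM (log2 0.48, and 0.13 with the length trend removed). Eef1akmt1, the most abundant of these methyltransferases, fell from 99.1 and 98.6 to 73.8 and 75.4 FPKM (log2 -0.40, limma adjusted p = 5.0e-04). Eef1akmt3, with 51 to 56 fragments per library, did not pass (log2 -0.09, limma adjusted p = 0.34). It did pass with the length trend removed (log2 -0.32, limma adjusted p = 0.023). Its SE from counting error alone was 0.198, however, beside a fitted SE of 0.0636. With standard errors held at or above counting error and the trend left in, the limma adjusted p was 0.84. The methyltransferases of this name thus moved in both directions.

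Dph5 and Dph7, of the pathway that makes the diphthamide of eEF2, fell from 15.2 and 14.9 to 8.30 and 8.43 FPKM and from 15.1 and 15.0 to 10.6 and 10.8. The other Dph genes of the list were mixed. Dph1 rose (log2 0.29, limma adjusted p = 0.0079), a call lost with equal FPKM totals (0.12, adjusted p = 0.21) and without Sc 2 (0.27, adjusted p = 0.051). Dph6 fell (log2 -0.32, limma adjusted p = 6.1e-04) but was at 0.08 with the length trend removed (adjusted p = 0.033), beside an SE of 0.0589 from counting error alone. Dph2 and Dph3 did not pass (adjusted p = 0.77 and 0.99). The hypusine enzymes of eIF5A, singled out after their values were seen, differed: Dhps had 122 and 122 against 137 and 138 FPKM (log2 0.17, limma adjusted p = 0.0032), a call lost when either Sc library was left out (adjusted p = 0.057 without Sc 1 and 0.054 without Sc 2), although the change stayed at 0.17 in both of these smaller fits. Dhps was also at -0.02 (adjusted p = 0.82) with equal FPKM totals. Dohh had 59.6 and 88.8 against 88.2 and 58.4 FPKM, again with Sc 1 near Kd 2, and did not pass (log2 -0.02, limma adjusted p = 0.99).

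**Figure D5:**
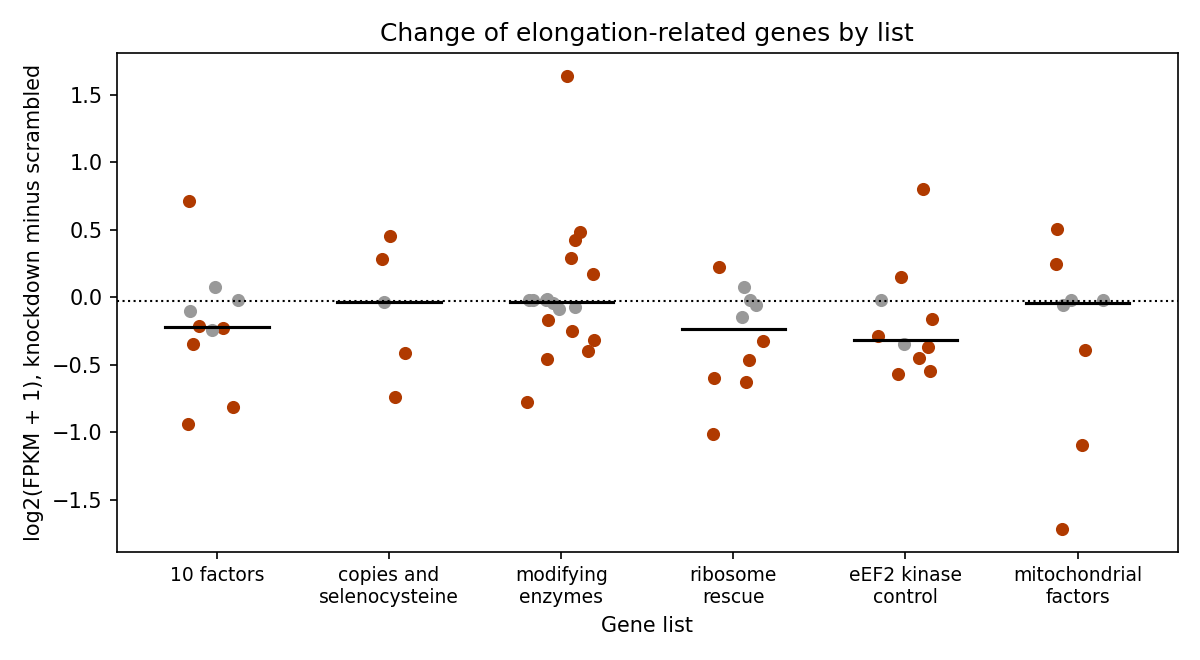
Difference in log2(FPKM + 1), knockdown minus scrambled, of each tested gene (red, past the threshold; grey, not) by list, with the list's median as a bar and the median of all tested genes as a dotted line. The list medians lie between -0.32 and -0.03, and the single genes spread from -1.72 (Gfm1) to 1.64 (Eef1akmt2).

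Ribosome rescue factors, which act on ribosomes stalled away from a stop codon, had 5 of 10 members lower, 1 higher and 4 not past, beside the 41.2% and 27.4% of all tested genes, with a median log2 change of -0.23. With the length trend removed, 4 were lower and 2 higher and the median was 0.02. Hbs1l, a GTPase related to Gspt1, fell from 8.20 and 8.22 to 3.52 and 3.60 FPKM (log2 -1.01, SE 0.02, limma adjusted p = 1.6e-04), and the change was -0.65 with the length trend removed. Its partner Pelo, related to Etf1 and singled out after its values were seen, fell from 27.1 and 26.8 to 21.1 and 21.5 FPKM (log2 -0.32, and -0.41 with the length trend removed). The GTPase thus had the larger decrease in this pair, a difference between genes that was not tested. The ubiquitin ligase Zfp598, which marks collided ribosomes, fell from 33.9 and 33.7 to 21.7 and 22.2 FPKM. Trip4, of the complex that takes collided ribosomes apart, fell from 3.33 and 3.24 to 1.76 and 1.77 FPKM (log2 -0.63, and -0.26 with the length trend removed). Ltn1, the ligase that tags the stalled chain, fell from 1.43 and 1.36 to 0.744 and 0.732 FPKM, a call lost with the length trend removed (log2 -0.08, adjusted p = 0.051).

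Genes that act on eEF2 kinase or eEF2 were higher for 2, lower for 6 and not past for 2 of 10 tested (11 listed), where all tested genes had 27.4% higher and 41.2% lower. The median log2 change was -0.32, but -0.14 after median-centring and -0.09 with the length trend removed, and the replicate block by batch left 1 higher and 4 lower. Calm3, a gene for calmodulin, which activates eEF2 kinase, rose from 375 and 368 FPKM in Sc 1 and Sc 2 to 646 and 648 in Kd 1 and Kd 2 (log2 0.80, SE 0.02, limma adjusted p = 1.6e-04). Calm2, also a calmodulin gene, rose by 0.15 (limma adjusted p = 0.0081), a call lost under the replicate block by batch (adjusted p = 0.065) and without Sc 1, Sc 2 or Kd 2 (adjusted p = 0.075, 0.08 and 0.051), and was at -0.04 with equal FPKM totals. Rps6ka1 and Rps6ka3, kinases of the RSK family that phosphorylate eEF2 kinase, fell from 9.83 and 9.66 to 6.31 and 6.38 FPKM and from 4.39 and 4.35 to 2.59 and 2.64. Their changes of -0.55 and -0.57 were -0.35 and -0.17 with the length trend removed. Ppp2cb, a catalytic subunit of protein phosphatase 2A, fell from 123 and 123 to 88.7 and 91.0 FPKM. Ppp2ca, the more abundant catalytic subunit, had 325.7 and 248.8 against 244.8 and 321.5 FPKM and did not pass (log2 -0.02, 95% interval -0.72 to 0.68, limma adjusted p = 0.99). These are levels of messenger RNA in polysomes, and phosphorylation of eEF2 was not measured.

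The mitochondrial elongation, release and recycling factors were higher for 2, lower for 3 and not past for 3 of 8 tested (9 listed), with a median of -0.04. Beside them, 27.4% of all tested genes were higher and 41.2% lower. Mtrf1, a mitochondrial release factor, fell from 4.05 and 3.95 to 1.33 and 1.35 FPKM. The recycling factor Mrrf fell from 16.2 and 16.2 to 12.0 and 12.3 (log2 -0.39, and -0.25 with the length trend removed). Mtrfr, which rescues stalled mitochondrial ribosomes, rose from 4.59 and 4.54 to 6.87 and 6.95 FPKM. The translocation factors of the cytosol and of mitochondria had changes of opposite sign, 0.72 for Eef2 and -1.72 for Gfm1.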

How the data were processed

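The authors deposited FPKM values per gene (fragments scaled to gene length and depth), named so per the labels. The labels' protocols give Trizol extraction, bead capture of messenger RNA, heat fragmentation and adapter ligation. The submitters' processing notes name GRCm38, mm10 and GRCm39 without roles; for the aligner, counter, annotation and strand setting the sources used here give nothing. All 4 value columns were used, 0 were left out. FPKM summed to between 598188 and 701936 per library.

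Tests covered 8750 of 18200 genes, those whose mean FPKM reached 1, as log2(FPKM + 1) with limma 3.58.1 (lmFit, eBayes with trend) in R 4.3.3, 2 libraries against 2, with group as the single term. Two-sided p-values were Benjamini-Hochberg adjusted over all tested genes, with a threshold of 0.05 and 3.06 degrees of freedom. Whole fragment numbers, apart from a common divisor, were solved from the FPKM ratios for 8749 tested genes, which also gave relative transcript lengths (relative depths 1.0, 1.2145, 1.2252 and 1.1241), and their counting error covers nothing else. For a gene whose true numbers share such a divisor, the length came out too short and the counting error too large. Values with the length trend removed carry that error. The method was tested on simulated data, as was the limma step. Counting error alone has a median SE of 0.0456 and the fitted SEs a median of 0.0208. Printed SEs and p-values can therefore understate even counting error, and not only in genes with few fragments. For Hbs1l the fitted SE was 0.0173 beside a counting SE of 0.0394, and for Eef1akmt2 0.0175 beside 0.0561. For Eef1a1, with far more fragments, the fitted SE of 0.0211 was above the counting SE of 0.00297.

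The labels tie the replicate number to a batch, which pairs the libraries by label. The check of that pairing, Pearson's r of replicate differences across genes, gave -0.83. Changes given within batches therefore compare libraries paired by label only, and the cause of the negative value was not tested.

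Named genes were the 10 factors, up to 4 tested genes with the smallest p of each of 5 lists, and Ifit1. Dhps, Dohh, Pelo, Eef1akmt1, Eef1akmt3, Dph1, Dph2, Dph3, Dph6, Calm2, Ppp2ca and Mtrf1l were added after their values were seen, and the untested Eef1a2 and Gspt2 and the cell markers are given as levels. The result of 1 listed gene is not reported here, though the list counts include it. The members and lists were chosen with earlier results of these data known. Sequences are from RefSeq (GRCm38.p6) and GENCODE M21. Figures used Python 3.11.15 and matplotlib 3.10.9.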

Additional observations from a re-analysis of the deposited data

How the results depend on the processing

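Calls of the 10 factors (1 higher, 5 lower) were the same in number under 10 of 13 alternatives: pseudocount 0.1, no filter, the replicate block by batch, quantile normalization, counting error as the smallest standard error, removal of the length trend, and leaving out each library. The replicate block by batch gave 1 higher and 5 lower factors and changed no factor's call. Median-centring left 3 lower. Equal FPKM totals gave 6 lower factors, with Eef2k, and 7 higher genes in the 5 other lists instead of 12. Without the filter, 3819 of 18200 genes were higher, against 2401 of 8750. The crossed pairing (Sc 1 with Kd 2), added after seeing the data, gave 2 higher and 7 lower factors, and 2962 higher and 4282 lower genes in all.

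Changes of sign among the factors occurred in those that had not passed. Eef1d was at 0.15 after median-centring, 0.11 with the length trend removed, and -0.18 to 0.13 over the fits without a single library (0.12 without Sc 1, 0.13 without Kd 1). Abce1 was at 0.071 and 0.11 under the same settings, and -0.25 to 0.046 without a single library (0.04 without Sc 1, 0.046 without Kd 1). Eif5a was at -0.20 after quantile normalization, -0.11 with equal FPKM totals and -0.009 without Sc 1 (-0.009 to 0.162 over these fits). Eef2k was at 0.11 with the length trend removed. Dhps, which had passed, was at -0.015 with equal FPKM totals and did not pass after quantile normalization (adjusted p = 0.061) or removal of the length trend (adjusted p = 0.18), and Dohh at 0.15 after median-centring, 0.26 without Sc 2 and 0.28 without Kd 2 (-0.31 to 0.28). In the order median-centred, quantile-normalized and length trend removed, Dph2 was at 0.102, 0.074 and 0.003 (-0.19 to 0.047 without a library) and Dph3 at 0.159, 0.095 and 0.128 (-0.408 to 0.381). Ppp2ca was at 0.152 and Eef1akmt3 at 0.084 after median-centring (Ppp2ca -0.217 to 0.175 without a library). Of the genes that had passed, Dph6 was at 0.077 with the length trend removed, and Calm2 at -0.027 after quantile normalization, -0.037 with equal FPKM totals and -0.01 with the length trend removed. After median-centring the medians of the copies, the modifying enzymes and the mitochondrial factors were 0.14, 0.14 and 0.132, beside 0.148 over all tested genes. Eef1a1, Eef2, Etf1 and Gspt1 passed in the same direction under all 13, with ranges of -1.27 to -0.77, 0.53 to 0.89, -0.53 to -0.14 and -0.99 to -0.46. Without a library, 1 group has a lone library that is assumed to vary like the other group. The cause of these shifts was not tested.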
